A study of Drosophila melanogaster with 9 samples.

Results

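Transcripts of 4 small secreted proteins linked to chemical sensing, a10, Phk-3, EbpIII and CheA87a, were followed in heads of Drosophila melanogaster that had lived with other flies or alone. They are 4 of 17490 genes in the count table, picked by gene symbol after results of these same libraries were known, and all 4 were among the 12963 genes with enough counts to be tested. The choice rested on the low values of a10 and CheA87a after 1 day alone, so for the 4 members every difference that involves those libraries is given as a description without a test, while other genes keep their test. The 3 housing groups were flies kept together for 7 days, flies kept alone for 7 days and flies kept alone for 1 day, with 3 libraries each. Every group carried a single genotype, wild type Canton-S w1118 (iso1CJ), so the white-eye mutation w1118 was shared by all flies, and each library pooled 200 heads taken between ZT0.5 and ZT2, shortly after lights on. The labels state neither sex nor age at collection. The labels do not say whether the 3 libraries of a group came from separate rearings, so p-values measure only the spread between these libraries.

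Insect chemosensory proteins of the OS-D family are short, soluble, secreted proteins that carry small hydrophobic molecules, and the fruit fly has few of them. The gene a10, also called OS-D, was found as a transcript of the antenna and encodes a secreted protein. EbpIII, named after the ejaculatory bulb of the male tract and also known as pherokine 2, and Phk-3, pherokine 3, belong to the same family. EbpIII is known to be induced by viral infection and Phk-3 by septic injury. CheA87a belongs to a different family, CheA, whose founding members were found in taste bristles on the front legs of males.

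Library totals ran from 39698143 to 53514747 counts. The heads carried photoreceptor transcripts at high levels, with the rhodopsin gene ninaE at 29850 to 38100 CPM (counts relative to the library total, after TMM scaling between libraries). Transcripts of gut, testis, accessory gland and ejaculatory duct were present in 5 of the 9 libraries, where their markers summed to 741 to 1782 CPM against 0.925 to 2.76 CPM in the other 4. The libraries with body tissue were replicate 2 of the group, replicates 1 and 2 of 1 day alone, and replicates 1 and 3 of 7 days alone. Yolk protein genes, which are female-typical, summed to 1202 CPM in replicate 1 of 1 day alone and to 39.7 to 94.1 CPM in the other 8 libraries. The male-typical RNA lncRNA:roX1 was at 1401 to 1851 CPM throughout. Odorant receptor genes of the antenna were near 0: Or22a, Or42b, Or47b and Or88a stayed at or below 0.162 CPM in every library, and 7 of 11 antennal receptor genes stayed below 1 CPM. How much of the antenna the collected heads still carried is not given in the labels.

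In the coordinates of the count table, which match those of BDGP6 for these genes, a10 (FBgn0011293) lies on chromosome 3L from 17023123 to 17023741 on the minus strand, in 2 exons, and encodes 155 residues. CheA87a (FBgn0038142) lies on 3R from 13369648 to 13370346 on the plus strand, in 2 exons, and encodes 183 residues. EbpIII (FBgn0011695, 2R, 24026172 to 24027518, plus strand) encodes 126 residues and Phk-3 (FBgn0035089, 2R, 24970843 to 24973207, minus strand) 121 residues, and each has 3 annotated transcripts that differ outside the coding part. The remaining OS-D family gene of the fly, CG30172, encodes 112 residues and begins 3027 bases beyond EbpIII.

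The 4 genes differed widely in abundance. Per kilobase of exon and averaged over all 9 libraries, EbpIII stood at 2321 CPM per kb, Phk-3 at 34.1, CheA87a at 18.8 and a10 at 2.74. By this measure EbpIII ranked 13 among the 17490 genes of the table and took 0.239% to 0.369% of all counts in a library. At the other end a10 ranked 8773. CG30172, not a member, was at 63.4 CPM per kb.

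The level of a10 was highest in group-housed heads, lowest after 1 day alone and intermediate after 7 days alone. It was at 2.92, 1.99 and 3.58 CPM in group replicates 1 to 3, at 0.551, 0.626 and 0.464 CPM after 1 day alone and at 1.14, 1.45 and 1.27 CPM after 7 days alone. The 3 groups did not overlap. These values rest on 106 to 178 counts in the group, 20 to 26 counts at 1 day and 59 to 67 counts at 7 days. The means were 2.83 ± 0.800, 0.547 ± 0.0808 and 1.29 ± 0.154 CPM (SD, n = 3 each). At 1 day the mean was 5.17-fold below that of the group, a fitted log2 change of -2.37 (SE 0.274). From 1 to 7 days alone the fitted log2 change was 1.23 (SE 0.265). Of all tested genes 15.1% lay in all libraries of 1 day alone below all group libraries, and 12.9% lay in all libraries of 7 days alone above all of 1 day alone; as the libraries of 1 day alone led to the choice of a10 and CheA87a, nothing is read from their separation. In whole heads, fewer cells that make a transcript and less of it per cell cannot be told apart.

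CheA87a followed the same order of groups. Its level was 23.04, 20.1 and 21.0 CPM in group replicates 1 to 3, 2.60, 3.61 and 5.27 CPM after 1 day alone, and 12.0, 11.8 and 9.33 CPM after 7 days alone. The groups again did not overlap, with every library of 7 days alone between the other groups. The means were 21.4 ± 1.51, 3.83 ± 1.35 and 11.1 ± 1.49 CPM (SD, n = 3 each), from 104 to 227 counts per library at 1 day and 1046 to 1223 in the group. The mean at 1 day was 5.59-fold below that of the group, a fitted log2 change of -2.48 (SE 0.254), and the change from 1 to 7 days alone was 1.53 (SE 0.246).

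Eye markers were also lower in the libraries of 1 day alone. All 9 listed photoreceptor genes had a negative log2 change at 1 day against group, with a median of -0.42, and their summed level was 55000 to 55400 CPM in the group, 42270 to 47620 CPM at 1 day and 49570 to 53310 CPM at 7 days. Of the 9, 2 fell (edgeR), where 2.71% of all tested genes did. They were trpl, a light-activated channel gene, by 0.69 (adjusted p = 0.00426, edgeR) and the rhodopsin gene Rh6 by 0.47 (adjusted p = 0.0398, edgeR). DESeq2 called 8 of the 9 lower and limma-voom 4. Of all tested genes these tools called 12.1% and 4.24% at 1 day, in either direction. In the fits that left out 1 library trpl was called in all 9, and Rh6 lost its call in 8, all but that without replicate 3 of 1 day alone (highest adjusted p = 0.264, edgeR). At 7 days all 9 had a negative change, with a median of -0.16. There edgeR called 0, with 1 at an unadjusted p under 0.05 (trpl), DESeq2 called 2 and limma-voom 0. Of all tested genes these rules called 0.301%, 6.36%, 2.53% and 0.401%, in that order. The part of tissue make-up in the differences of a10 and CheA87a was not tested.

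**Figure D1:**
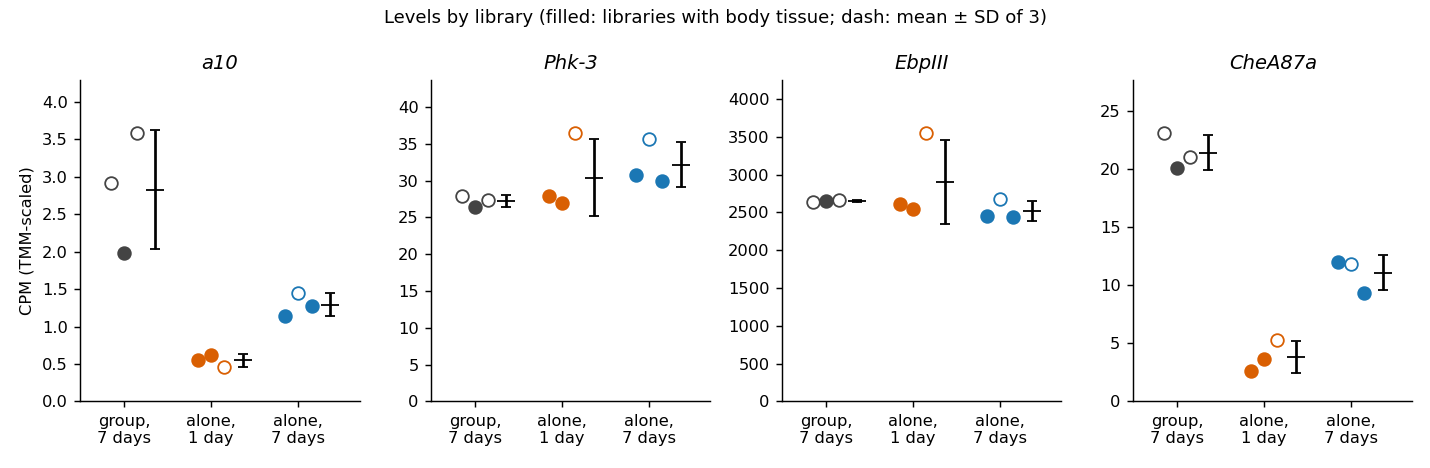
CPM of each gene in every library, by housing group; the vertical axis of each panel starts at 0, filled points are libraries with body tissue, open points those without, and the dash with bars is the mean ± SD of 3 libraries. The groups are separated for a10 and CheA87a, with 1 day alone lowest, whereas for Phk-3 and EbpIII a single library of 1 day alone, replicate 3, stands above the other 2 of its group.

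Phk-3 was close to even across housing. It was at 28.0, 26.4 and 27.4 CPM in the group, at 27.9, 27.0 and 36.4 CPM after 1 day alone and at 30.8, 35.7 and 30.0 CPM after 7 days alone. All libraries of 7 days alone lay above all group libraries, while those of 1 day alone overlapped with both. The high value at 1 day came from replicate 3, and without it the log2 change of 1 day against group was 0.06 in place of 0.16. That replicate was the library of 1 day alone without body tissue. Without body tissue Phk-3 was at 27.4 to 28.0 CPM in the group, 36.4 at 1 day and 35.7 at 7 days. With body tissue it was lower in each group, at 26.4, 27.0 to 27.9 and 30.0 to 30.8 CPM.

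EbpIII was abundant in every library. It was at 2636, 2654 and 2666 CPM in the group, at 2613, 2551 and 3547 CPM after 1 day alone and at 2452, 2676 and 2438 CPM after 7 days alone. All 3 groups overlapped, and replicate 3 of 1 day alone was again the highest library. The spread within the group was 0.568% of the mean. Without that replicate the log2 change of 1 day against group was 0.01 in place of 0.13. CG30172, the neighbour of EbpIII in the same family, was also highest in that library, at 69.9 CPM against 36.3 to 51.9 CPM in the other 8.

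EbpIII is named after the male tract, and its level was set beside that of male tract transcripts. Ebp and EbpII, which encode other proteins of the ejaculatory bulb, were at 127 to 345 and 42.0 to 112 CPM in the 5 libraries with body tissue. In the other 4 they were at or below 0.0232 and 0.0377 CPM. EbpIII ran from 2438 to 2654 CPM with body tissue and from 2636 to 3547 CPM without, so it was high in libraries where the other bulb genes were near 0.

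The comparison of 7 days alone with the group was tested. Its difference is between those groups, but its SE and p rest on a spread estimated from all 9 libraries, including those of 1 day alone. It also shares the group libraries with the comparison that led to the choice of a10 and CheA87a. None of the 4 members had an adjusted p under 0.05 by the quasi-likelihood test of edgeR (Benjamini-Hochberg over all tested genes), where 0.301% of all tested genes did. At an unadjusted p under 0.05, 2 of 4 did, as did 6.36% of all tested genes. For a10 the log2 change was -1.13 (SE 0.264, 95% interval -1.75 to -0.51, adjusted p = 0.241). For CheA87a it was -0.95 (SE 0.242, 95% interval -1.52 to -0.38, adjusted p = 0.305). In a fit of only the groups compared, the adjusted p was 0.220 for a10 and 0.064 for CheA87a (edgeR). DESeq2, which called 2.53% of all tested genes, called both (adjusted p = 0.0136 for a10 and 0.000938 for CheA87a). Limma-voom, which called 0.401%, called CheA87a (adjusted p = 0.0488) but not a10 (adjusted p = 0.414). All 3 libraries of 7 days alone lay below all 3 of the group for both genes, a separation that 8.45% of tested genes showed in that direction.

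For Phk-3 the log2 change at 7 days was 0.24 (SE 0.124, 95% interval -0.05 to 0.53, adjusted p = 0.880, edgeR). For EbpIII it was -0.07 (SE 0.141, 95% interval -0.40 to 0.26, adjusted p = 0.896, edgeR). All 3 libraries of Phk-3 at 7 days lay above all group libraries, which 7% of tested genes showed in that direction.

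**Figure D2:**
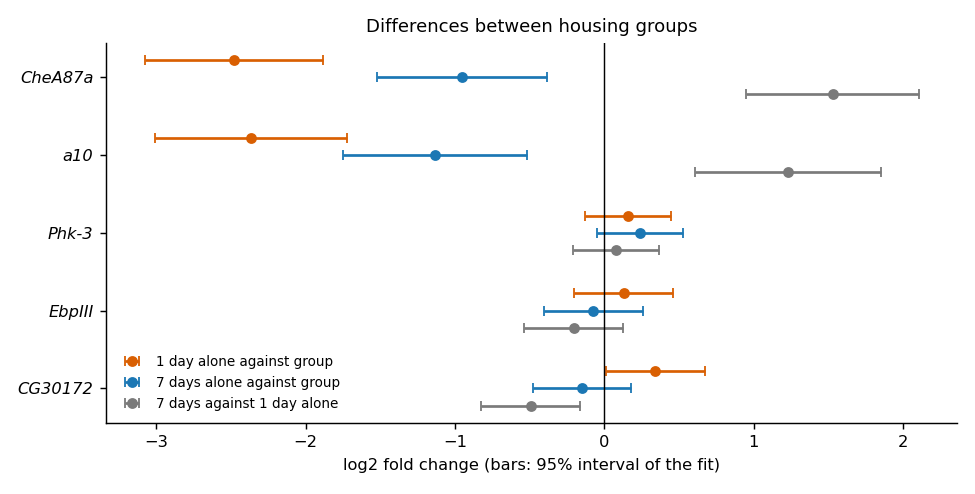
Fitted log2 fold change (horizontal axis) of the 4 members and of CG30172 for 3 pairs of housing groups; bars are 95% intervals from the fit over 9 libraries. For CheA87a and a10 the points of 1 day against group lie at -2.48 and -2.37. The pairs share libraries with each other, and the libraries of 1 day alone led to the choice of CheA87a and a10. For the 4 members, bars of pairs with 1 day alone are therefore a description and not a test. Nothing is read from where those bars begin or end.

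The order of the groups for a10 and CheA87a was the same among libraries with and among libraries without body tissue. As the libraries of 1 day alone led to the choice of these genes, values that involve them are only a description here. The group with body tissue and each isolation time without it had 1 library. With body tissue, a10 was at 1.99 CPM in the group, 1.14 to 1.27 CPM at 7 days and 0.551 to 0.626 CPM at 1 day. Without it, a10 was at 2.92 to 3.58, 1.45 and 0.464 CPM. CheA87a was at 20.1, 9.33 to 12.0 and 2.60 to 3.61 CPM with body tissue and at 21.0 to 23.04, 11.8 and 5.27 CPM without. When body tissue was added to the model as a term, the log2 changes at 7 days against group were -1.02 for a10 (adjusted p = 0.120, edgeR) and -0.85 for CheA87a (adjusted p = 0.0634, edgeR). Leaving out replicate 1 of 1 day alone, the library with yolk protein transcripts, left -2.29 for a10 and -2.19 for CheA87a at 1 day against group.

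Genes of other proteins that are secreted into antennal sensilla were followed beside a10. The odorant-binding protein gene lush, which is needed to sense the male pheromone cVA, was at 3.65, 3.67 and 4.52 CPM in the group, at 1.90 to 2.23 CPM after 1 day alone and at 2.15, 2.27 and 2.50 CPM after 7 days alone. It fell at 1 day (log2 change -0.97, SE 0.157, adjusted p = 0.0183, edgeR), while at 7 days its log2 change was -0.77 (adjusted p = 0.150, edgeR). The call at 1 day was lost in 8 of the 9 fits that left out 1 library, all but that without replicate 3 of 1 day alone (highest adjusted p = 0.131, edgeR). All isolated libraries lay below all group libraries for lush. Of all tested genes 15.1% were separated in that direction at 1 day and 8.45% at 7 days. Obp83a, which encodes the antennal protein OS-F, was at 1.94 and 2.94 CPM in group replicates 1 and 3 but at 0.262 CPM in replicate 2, against 0.286 to 0.557 CPM in the 6 isolated libraries. Obp83b, encoding OS-E, had the same shape, at 1.55, 0.562 and 2.45 CPM in the group and at 0.457 to 0.914 CPM in isolation. Obp28a went the other way, at 0.791, 1.07 and 1.81 CPM in the group, at 1.83 to 3.55 CPM after 1 day alone and at 1.09 to 2.58 CPM after 7 days alone, with log2 changes of 0.98 and 0.40 (adjusted p = 0.356 and 0.880, edgeR). For Antdh, an antennal dehydrogenase gene, the log2 changes were -0.01 and 0.18 (adjusted p = 0.953 and 0.880, edgeR), and for Obp69a -0.42 and -0.28 (adjusted p = 0.194 and 0.880, edgeR). In replicate 2 of the group a10 was also at its lowest for that group, although it stayed above all isolated libraries.

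Of the 9 listed antennal support cell and sensillum lymph genes 6 were tested, 1 fell at 1 day against group, where 2.71% of all tested genes fell, and none rose. Their median log2 change was -0.70 against 0.03 over all tested genes. The gene that fell was lush, which DESeq2 and limma-voom also called. Of all tested genes these tools called 12.1% and 4.24% at 1 day, in either direction. At an unadjusted p under 0.05, 3 of the 6 were lower at 1 day (lush, Obp83a and Obp69a, edgeR). The share of all tested genes by that rule is not given for 1 day. At 7 days edgeR called none, with a median of -0.53 against 0.01. There 3 were lower at an unadjusted p under 0.05 (lush, Obp83a and Obp83b), DESeq2 called 1 (lush) and limma-voom 0. Of all tested genes 0.301% were called by edgeR and 6.36% had an unadjusted p under 0.05, in either direction. DESeq2 called 2.53% of them and limma-voom 0.401%. The summed level of the list was 36.9 to 46.1 CPM in the group, 31.8 to 39.5 CPM at 1 day and 32.8 to 42.8 CPM at 7 days. Obp59a had counts in group replicates 1 and 3 and was at 0 in the other 7 libraries.

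The listed antennal receptor genes were followed in the same way. The odorant co-receptor gene Orco was at 1.73 to 2.51 CPM in the group, at 1.85 to 2.65 CPM after 1 day alone and at 1.36 to 2.75 CPM after 7 days alone. Ir25a, a co-receptor of ionotropic receptors, and Snmp1, which encodes a membrane protein of pheromone-sensing sensilla, had log2 changes of -0.14 and -0.09 at 1 day. Over all tested genes edgeR called 3.96% at 1 day against group and 0.301% at 7 days. Of the 11 listed genes 5 were tested and none was called in either isolation group by edgeR, DESeq2 or limma-voom, with 0 at an unadjusted p under 0.05. Of all tested genes DESeq2 called 12.1% at 1 day and 2.53% at 7 days, and limma-voom 4.24% and 0.401%. At 7 days 6.36% had an unadjusted p under 0.05 (edgeR), and that share is not given for 1 day. A list of 5 tested genes can hold 0 calls at such shares. The median of these 5 was -0.07 at 1 day. The summed level of the 11 listed genes was 43.0 to 43.9 CPM in the group, 38.5 to 43.6 CPM at 1 day and 40.3 to 43.9 CPM at 7 days. Most of that sum came from Snmp1 (18.1 to 21.2 CPM), Ir25a (9.33 to 12.0 CPM) and Ir76b (7.33 to 8.94 CPM). The part of antennal tissue in the differences of a10 was not tested.

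**Figure D3:**
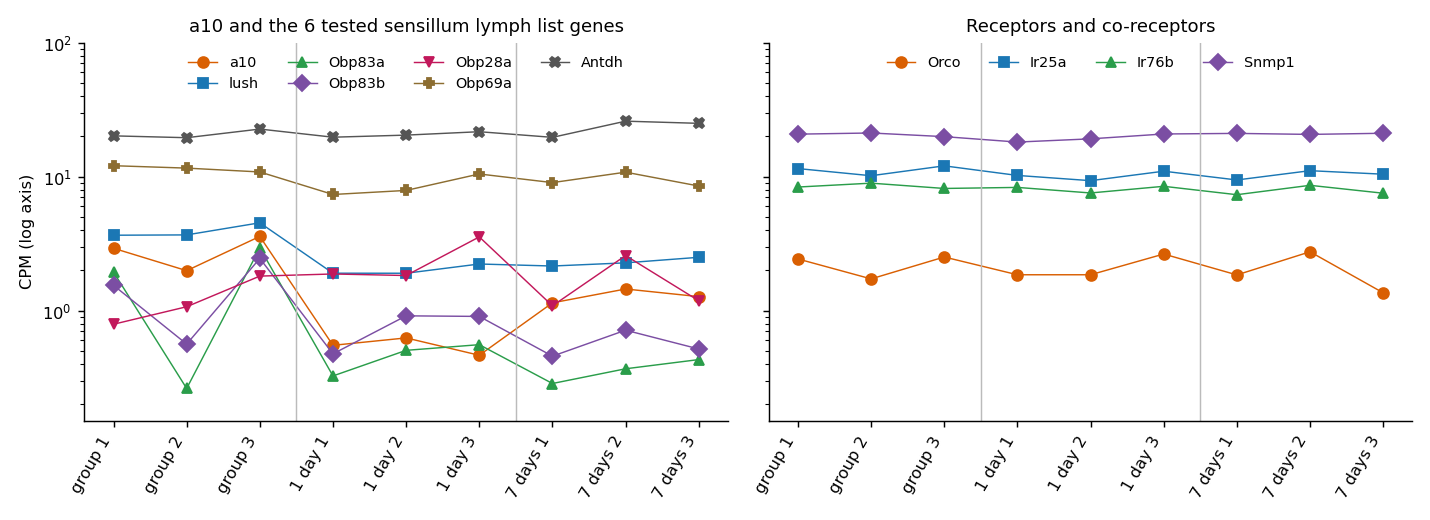
CPM per library on a log axis for a10 with the 6 tested genes of the sensillum lymph list (left) and for 4 antennal receptor and co-receptor genes (right); libraries are ordered by group, separated by grey lines, and lines only guide the eye. On the left a10 and lush are highest in the group libraries and Obp83a and Obp83b in group replicates 1 and 3, Obp28a is highest in replicate 3 of 1 day alone and Antdh in replicate 2 of 7 days alone, while on the right the ranges of the 3 groups overlap for Orco.

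CheA87a shares 107 exon bases with Lip3, a lipase gene on the other strand, which is 16.6% of the exon length of CheA87a and 7.5% of that of Lip3. Lip3 had 102 to 133 counts in the group, 43 to 70 at 1 day and 73 to 105 at 7 days, fewer than CheA87a in each library. If its counts were spread evenly along its exons, those in the shared bases would equal 0.73% to 3.18% of the counts of CheA87a. The shared bases lie at the 3′ end of both genes, so an even spread need not hold. All counts of Lip3 together equal 9.7% to 12.4% of those of CheA87a in the group, 30.8% to 42.7% at 1 day and 13.4% to 24.2% at 7 days. Lip3 itself changed by -0.68 at 1 day (SE 0.229, adjusted p = 0.167, edgeR) and by -0.24 at 7 days (adjusted p = 0.880, edgeR). Of 123 genes wholly covered by exons of the other strand and by no gene on their own, 119 had counts, so reads that touch genes on both strands had not all been discarded. Whether counting used the strand is not given, and reads of CheA87a could in turn have added to Lip3.

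**Figure D4:**
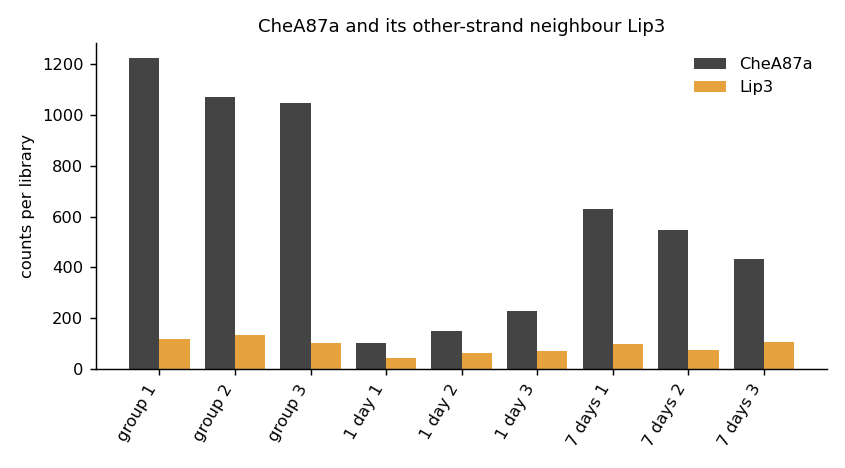
Counts per library of CheA87a and of Lip3, which overlaps its end on the other strand; the axis starts at 0. Lip3 lies between 43 and 133 counts in all libraries, below CheA87a in each, while CheA87a runs from 104 to 1223.

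The other 7 CheA genes stayed below 1 CPM in every library, and CheA46a had 0 counts in all 9. CheA7a and CheA75a were the other CheA genes with enough counts to be tested, with log2 changes at 1 day of -0.62 and -0.45 (adjusted p = 0.756 and 0.889, edgeR), and their highest levels in any library were 0.324 and 0.464 CPM. CheB genes encode secreted proteins first described in taste sensilla. Of the 12, 3 were tested and none was called at either time by edgeR, DESeq2 or limma-voom, with 0 at an unadjusted p under 0.05. Over all tested genes edgeR called 3.96% at 1 day against group and 0.301% at 7 days. DESeq2 called 12.1% and 2.53% of them, and limma-voom 4.24% and 0.401%. At 7 days 6.36% had an unadjusted p under 0.05 (edgeR), and that share is not given for 1 day. A list of 3 tested genes can hold 0 calls at such shares. CheB42a was at 1.32 to 2.06 CPM and CheB42c at 1.28 to 1.95 CPM across the 9 libraries.

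Other carriers and taste receptors were taken from the lists in the same way. Over all tested genes edgeR called 3.96% at 1 day against group and 0.301% at 7 days. DESeq2 called 12.1% and 2.53% of them, and limma-voom 4.24% and 0.401%. At 7 days 6.36% had an unadjusted p under 0.05 (edgeR), and that share is not given for 1 day. Lists as short as these can hold 0 calls at such shares. Of 8 Npc2 genes, a family of secreted sterol-binding proteins, 7 were tested and none was called at either time against the group by edgeR, DESeq2 or limma-voom, with 0 at an unadjusted p under 0.05, with medians of 0.09 at 1 day and 0.03 at 7 days. Npc2g was at 262 to 349 CPM. All 8 taste receptor genes were tested and none was called by the same 3 tools, again with 0 at an unadjusted p under 0.05 and with medians of -0.02 at 1 day and -0.01 at 7 days. In the OS-D family, CG30172 changed by 0.34 at 1 day (SE 0.141, adjusted p = 0.251, edgeR) and by -0.15 at 7 days (adjusted p = 0.880, edgeR). Since EbpIII is known from viral infection, 10 genes of the virus and STING response were listed, of which 8 were tested. At 1 day 1.25% of all tested genes rose and 2.71% fell, and of the 8 listed genes 1 did each (edgeR). DESeq2 called 2 higher (Srg1 and Sting) and 1 lower (Dcr-2), and limma-voom 1 each (Srg1 and Dcr-2). Of all tested genes these tools called 12.1% and 4.24%, in either direction. The gene Sting changed by 0.76 (adjusted p = 0.0655, edgeR). Srg1, a target of the receptor Sting, rose by 1.94 (adjusted p = 0.00377, edgeR), from 4.18 to 4.75 CPM in the group to 13.5 to 20.2 CPM, and Dcr-2, the antiviral Dicer, fell by 0.26 (adjusted p = 0.0256, edgeR). Srg1 was called in all 9 fits that left out 1 library, and the call of Dcr-2 was lost in 7 of these 9, all but those without replicate 2 of the group or replicate 1 of 7 days alone (highest adjusted p = 0.227, edgeR). At 7 days edgeR called none of the 8, with 1 at an unadjusted p under 0.05 (Srg1), which DESeq2 called and limma-voom did not. Of all tested genes 0.301% were called by edgeR there and 6.36% had an unadjusted p under 0.05. DESeq2 called 2.53% of them and limma-voom 0.401%. The medians of the 8 listed genes were 0.03 at both times.

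Of the genes next to the members, none of those named here was called at 1 day. The nearest tested neighbours of a10, CG6652 at 266 bases and Fit2 at 586 bases, had log2 changes at 1 day of 1.26 (adjusted p = 0.734, edgeR) and 0.09 (adjusted p = 0.706, edgeR). The mitochondrial carrier gene Dic1, 369 bases from CheA87a, changed by 0.14 (adjusted p = 0.109, edgeR). CG3776, which overlaps Phk-3 by 13 bases on the other strand, changed by 0.12 (adjusted p = 0.524, edgeR). CG2736, at 223 bases on the other side of Phk-3, changed by -0.35 (adjusted p = 0.0683, edgeR).

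The genes most like each member were those whose centred log2 CPM had the smallest root mean square difference from it over the 9 libraries, among 10722 candidates with a mean of at least 1 CPM. For a10, whose own values spread by 0.95 log2 units around their mean, they were TotX at 0.27, CG33093 at 0.35, CG30088 at 0.37, CheA87a at 0.41 and lectin-24A at 0.41. For CheA87a, with a spread of 1.07, they were TotA at 0.32, CG30088 at 0.35, TotX at 0.36, TotB at 0.38 and CG33093 at 0.38. The Turandot genes TotA, TotB and TotX encode secreted proteins of the stress response and resemble each other in sequence, so their reads could be shared. TotX went from 621 CPM in the group to 153 CPM at 1 day and 300.1 CPM at 7 days, and TotA from 4234 to 594 and 2168 CPM. The 9 libraries behind each distance fall into 3 groups, so genes with the same order of group means come out as alike.

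Phk-3 and EbpIII spread by 0.16 and 0.15 log2 units around their means. The nearest to Phk-3 were ssp7 at 0.03, GstE9 at 0.05, Gs1l at 0.05, Wnt10 at 0.06 and CG1785 at 0.06. The nearest to EbpIII were CG5676 and RpS25 at 0.03 and Tsp42Ej, CG1552 and CG14903 at 0.04. Between members, a10 and CheA87a differed by 0.41 and Phk-3 and EbpIII by 0.14, while the 4 mixed pairs differed by 1.02 to 1.11. Both a10 and CheA87a were chosen for low values after 1 day alone. Nothing is therefore read from their likeness or from their distance to the other members.

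**Figure D5:**
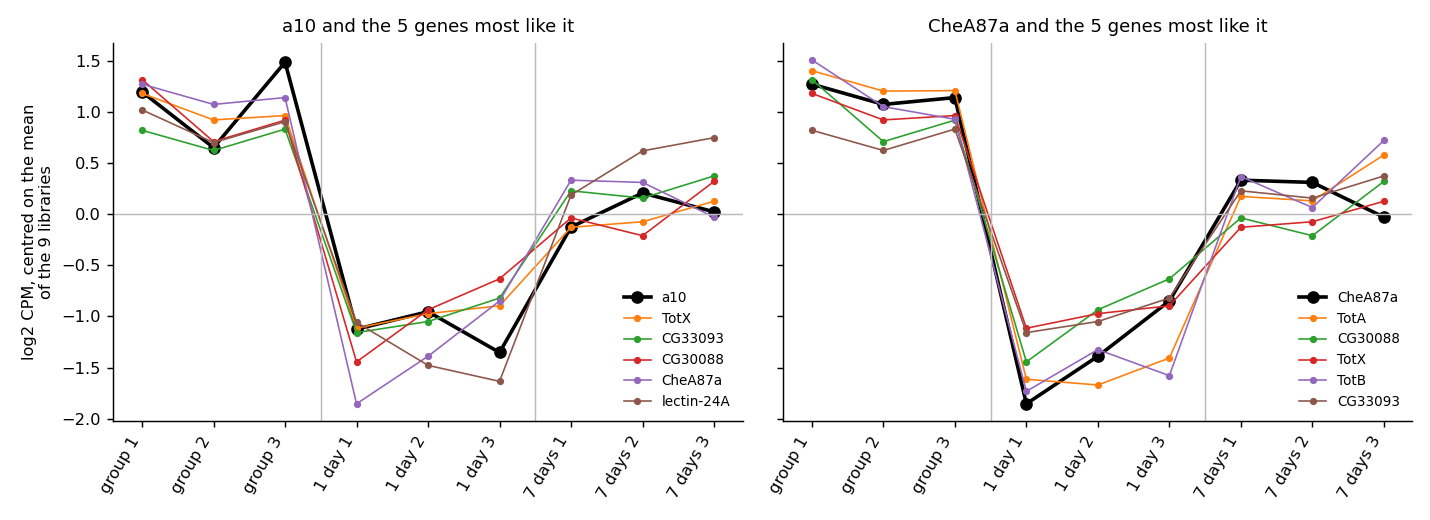
Log2 CPM centred on the mean of the 9 libraries for a10 (left) and CheA87a (right) in black, with the 5 genes most like each in colour; libraries are ordered by group and separated by grey lines. In each panel the values are above 0 in the group, below 0 at 1 day alone and between these at 7 days alone, except that lectin-24A in replicate 3 of 7 days alone is above group replicate 2.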

How the data were processed

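RNA from whole heads was made into TruSeq stranded mRNA libraries, per the labels' protocols. The submitters' processing notes name bcl2fastq 2.20, STAR 2.4.2a and featureCounts, and the authors deposited raw counts per gene, with exon length in bases. Build, strand use and handling of multi-mapped reads are not stated there.

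Symbols came from a reference table of gene names (17288 of 17490 identifiers), and 17144 deposited gene spans were identical in the Ensembl BDGP6 annotation. The counts entered 1 fit of 9 libraries (edgeR 4.0.16, R 4.3.3; filterByExpr, TMM, quasi-likelihood test, group as the only term), leaving 12963 genes, and the test was checked on simulated counts. A call was an adjusted p under 0.05, two-sided. SE is the size of the log2 change divided by the square root of F, and 95% intervals use the degrees of freedom of the fit.

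The members, gene lists and body tissue limit (marker sum over 50 CPM) were chosen with earlier results of these data known. Named genes were the members, Lip3, the OS-D and CheA families, the 5 genes most like each member and up to 4 called genes per list; neighbours and further list genes were added after their values were seen. Alternatives were RLE and upper quartile scaling, other filters, DESeq2 1.42.0, limma-voom 3.58.1, terms for replicate and body tissue, fewer libraries and a gene length trend. Figures used matplotlib 3.10.9 in Python 3.11.15.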

Additional observations from a re-analysis of the deposited data

How the results depend on the processing

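The direction of a10 and CheA87a held under every alternative run, in all 3 comparisons. The comparisons with 1 day alone use the libraries that led to the choice of these genes. That of 7 days alone against group shares the group libraries with that choice. The kept direction in refits of the same counts is therefore a description. Calls at 7 days against group were gained with DESeq2 (a10 -1.14, CheA87a -0.95) and limma-voom (CheA87a -0.96). Restricting the fit to the 4 libraries without body tissue, chosen after seeing the data and read as values only, moved a10 to -2.78 and CheA87a to -2.05 at 1 day against group, with 0.44 for EbpIII and 0.41 for Phk-3, and between the isolation times to 1.62, 1.15 and, for EbpIII, -0.43. At 7 days EbpIII was then at 0.01 in place of -0.07. With only the 5 libraries with body tissue a10 was at -1.73 at 1 day and -0.74 at 7 days.

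Leaving out 1 library gave, at 7 days against group, -1.39 to -0.94 for a10, -1.05 to -0.86 for CheA87a, 0.11 to 0.27 for Phk-3 and -0.17 to -0.06 for EbpIII, with no call. At 1 day against group the ranges were -2.59 to -2.11, -2.73 to -2.19, 0.06 to 0.29 and 0.01 to 0.28. Between the isolation times they were 1.07 to 1.34, 1.24 to 1.77, -0.06 to 0.17 and -0.35 to -0.09.

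The r of deviations between libraries of equal replicate number ran from -0.978 to 0.934. It was positive where both libraries had, or both lacked, body tissue and negative where they differed. It therefore cannot show whether equal numbers were paired. With a replicate block the 7-day log2 changes were -1.13 for a10 and -0.95 for CheA87a (adjusted p = 0.694 and 0.740, edgeR) and the share of all genes called was 0% there, 1.25% at 1 day and 0.972% between isolation times. The shares in the order 7 days, 1 day and between times were 0.301%, 3.96% and 4.62% as reported, 0.199%, 2.19% and 2.16% without a filter, 2.53%, 12.1% and 11.6% with DESeq2, 0.505%, 1.06% and 0.25% with only the groups compared, and 0.663%, 6.4% and 7.15% with a gene length trend subtracted. At 7 days they were 0.547% with a filter of 1 CPM and 1.1% with the body tissue term. At 1 day against group, lush was called in 9 of 19 alternatives, Dcr-2 in 9, Rh6 in 6, and Srg1 and trpl in 19, added after seeing the data and with no change of sign. The cause of these shifts was not tested. At 1 day alone a10 rests on 20 to 26 counts per library.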
